A study of Mus musculus with 6 samples.

Results

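The genes of the creatine and calcium futile cycles were followed in inguinal white adipose tissue (iWAT) of mice kept in the cold or at thermoneutrality. They are the rows of the mRNA table with these symbols, 10 of its 22481 gene symbols, chosen for their role in the cycles. Of these, 7 belong to the creatine cycle (Gatm, Gamt, Slc6a8, Ckb, Ckmt1, Ckmt2 and Alpl) and 3 to the calcium cycle (Atp2a2, Atp2a3 and Ryr2). RNA was sequenced from 6 iWAT samples of C57BL/6 mice, 3 housed at 4 °C and 3 at 30 °C, each for 7 days. The study's methods give male C57BL/6J mice aged 8 weeks, and no transgene, deletion or drug is named for either group. The labels name the source both as adipocytes and as inguinal tissue, and the methods describe RNA from whole frozen fat. Nothing says whether a sample was 1 mouse or several, so p-values measure the spread between samples, which may be technical.

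Creatine is made by joining a guanidino group from arginine to glycine and then methylating the product, or it is taken up from blood by a transporter. Creatine kinases move phosphate between ATP and creatine, and in the mitochondria of mouse thermogenic fat phosphocreatine can be split again by a phosphatase, so that ATP is spent and heat released. In the calcium cycle, SERCA pumps spend ATP to move calcium into the endoplasmic reticulum, and ryanodine or IP3 receptors let it out again. Both cycles are known in beige fat of mice as routes to heat that need no uncoupling protein.

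In these samples the creatine synthesis genes Gatm and Gamt were called lower in the cold, as were 35.2% of all genes tested. Only Gatm was called in most ways of analysing the data, and the value of Gamt is uncertain. Ckb, the brain-type creatine kinase, stood above every thermoneutral sample in all 3 cold samples, yet did not pass the test. Neither Ckmt1 nor Ckmt2 was expressed beyond a trace outside 1 sample each. The pumps and Ryr2 gave no call under the deposited scaling.

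Promoters are shown for the pair of synthesis genes, whose fold changes had the same sign, and for Ckb, which differed from them in sign. Each window runs from 250 bases before to 50 bases after the RefSeq start, on the coding strand of build GRCm38.p6, and 8 of the 10 genes had such a window (Slc6a8 and Atp2a2 did not match). The letters TNAAGGTCA (the extended half-site of estrogen-related receptors), TGACGTCA (the cAMP response element) and CTATTTATA (a site of MEF2 factors) were searched on both strands. Capitals in the Ckb sequence mark the single match among the windows of all 8 genes, CTATTTATA read on the opposite strand.
Gatm, chr2:122611228-122611527, minus strand: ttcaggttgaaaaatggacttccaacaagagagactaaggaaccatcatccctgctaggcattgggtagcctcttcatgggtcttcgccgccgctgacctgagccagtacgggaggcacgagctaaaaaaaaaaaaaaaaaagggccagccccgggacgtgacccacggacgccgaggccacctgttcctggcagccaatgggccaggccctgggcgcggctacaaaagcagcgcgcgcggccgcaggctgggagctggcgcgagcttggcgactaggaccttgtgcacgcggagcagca
Gamt, chr10:80260963-80261262, minus strand: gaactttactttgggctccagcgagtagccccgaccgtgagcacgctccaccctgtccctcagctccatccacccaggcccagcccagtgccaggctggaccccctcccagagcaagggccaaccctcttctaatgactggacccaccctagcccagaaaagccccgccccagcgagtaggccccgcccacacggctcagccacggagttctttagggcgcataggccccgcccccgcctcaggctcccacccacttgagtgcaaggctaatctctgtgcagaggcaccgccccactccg
Ckb, chr12:111672289-111672588, minus strand: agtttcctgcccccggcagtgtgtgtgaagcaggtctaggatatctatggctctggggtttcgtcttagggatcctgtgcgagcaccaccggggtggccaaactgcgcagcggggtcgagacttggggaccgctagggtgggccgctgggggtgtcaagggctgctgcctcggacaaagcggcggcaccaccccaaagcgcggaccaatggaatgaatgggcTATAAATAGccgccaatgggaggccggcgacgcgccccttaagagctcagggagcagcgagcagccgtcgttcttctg
In the Ckb window the match covers bases 223 to 231, and the letters TATAAA of a TATA box begin at the same base, 28 bases before the start, so both sets of letters overlap. Of 32851 mouse promoters of this length, 0.429% hold CTATTTATA, 1.28% hold TNAAGGTCA, 1.79% hold TGACGTCA and 8.32% hold TATAAA on the coding strand (the last set of letters was chosen after the sequence was seen). GC content was 60.7% for Gatm, 66.0% for Gamt and 63.0% for Ckb, against a median of 52.7% over all promoters (quartiles 45.7% and 61.7%).

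Values are scaled counts, the fragments per gene that the authors had divided by 1 size factor per sample. Totals were 17434977 to 17588754 in the cold and 19276924 to 19603526 at thermoneutrality, from an estimated 15261977 to 23636675 fragments. Over 11629 tested genes the median log2 fold change (cold minus thermoneutral) was −0.54, so each change is also given after centring every sample on its median gene, which brought that median to −0.01. Thermogenic markers, Ucp1 among them, were 0.881% to 1.20% of counts in the cold and 0.0182% to 0.0194% at thermoneutrality, with 8 of 8 higher, and adipocyte markers were 1.14% to 2.62% in every sample. A pair of samples stood apart. The 13 skeletal muscle markers made up 1.23% of counts in cold replicate 2, but only 0.00195% and 0.00216% in cold replicates 1 and 3, and 0.0171% to 0.0530% at thermoneutrality. The 7 epithelial markers made up 0.168% in thermoneutral replicate 1 and at most 0.000389% elsewhere. Results resting on either sample are given without it.

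Of the 10 genes, 7 passed the filter on low values (3 or more samples with an FPKM of 1 or above), and a call means an adjusted p under 0.05 in limma. In the cold, 0 of the 7 were called higher, beside 6.25% of all genes tested, and 2 were called lower (Gatm and Gamt), beside 35.2%. With an unadjusted p under 0.05, 0 were higher (7.64% of all genes) and 3 lower (46.6%), Slc6a8 being the addition. With the study's thresholds of an unadjusted p under 0.05 and a fold of at least 2, 0 were higher (4.21% of all genes) and 2 lower (18.6%). The groups did not overlap in 4 of the 7 genes, with 3 lower in the cold (52.1% of all genes) and 1 higher (9.10%). Nothing particular to the 10 genes is read from these counts beside their backgrounds. After centring, Gatm was the 1 gene called lower (5.41% of all genes) and Atp2a3 the 1 called higher (10.3%). Without cold replicate 2, Gatm and Slc6a8 were lower (22.7%) and 0 were higher (4.28%), while an unadjusted p under 0.05 in limma gave 2 lower (41.9%) and 0 higher (6.62%), and with centring added neither direction held a call (2.35% lower, 6.90% higher), with 1 lower (11.3%) and 2 higher (16.4%) at an unadjusted p under 0.05 in limma. Without thermoneutral replicate 1, Gatm and Gamt were lower (44.2%) and Alpl was higher (8.01%).

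**Figure D1:**
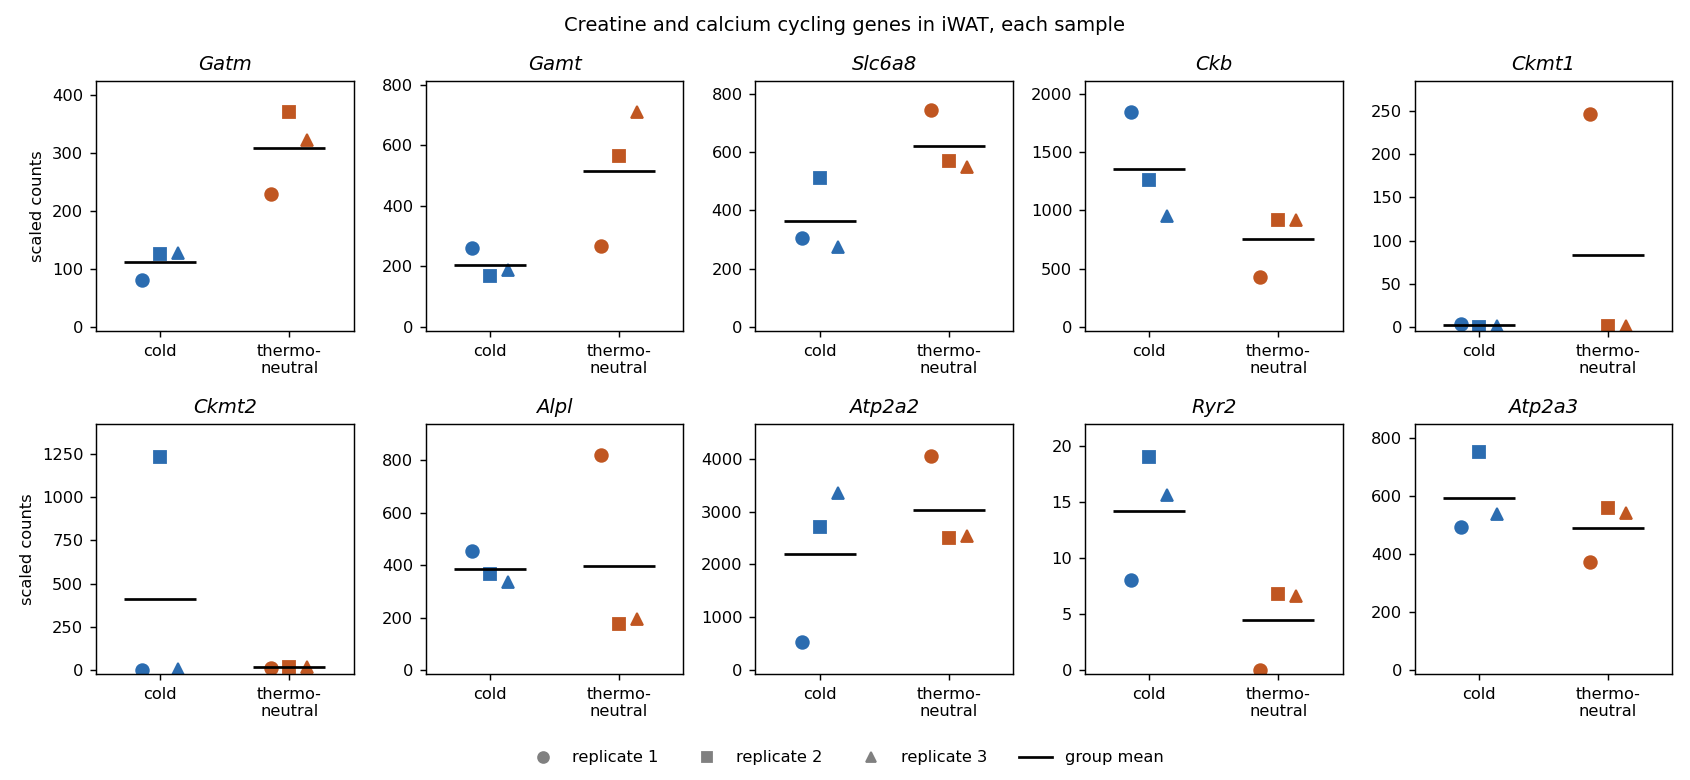
Scaled counts (linear axes) of the 10 genes in each sample, with replicate number by marker shape and a bar at the group mean. The 3 cold samples lie below every thermoneutral sample for Gatm (81.1 to 127 against 230 to 372), whereas 1 sample alone carries Ckmt1 (247) and 1 alone carries Ckmt2 (1232).

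Creatine synthesis starts with Gatm, the mitochondrial amidinotransferase that makes guanidinoacetate from arginine and glycine (chr2:122594467-122611303). Gatm had 81.1, 125 and 127 scaled counts in cold replicates 1 to 3 and 230, 372 and 323 at thermoneutrality. All cold samples lay below all thermoneutral ones, and the highest cold value (127) was well under the lowest thermoneutral one (230). The mean was 111 ± 26.0 against 308 ± 72.2 (SD, n = 3 each). Gatm fell by 1.46 on the log2 scale (SE 0.27, adjusted p = 0.011, 95% interval −2.11 to −0.82). Its change was −0.93 after centring (adjusted p = 0.042) and −1.57 without cold replicate 2 (adjusted p = 0.028). The call held in 16 of 18 alternatives and was lost with quantile normalization (−0.84, adjusted p = 0.054) and without cold replicate 2 after centring (−0.98, adjusted p = 0.095).

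Gamt methylates guanidinoacetate to creatine. It had 262, 167 and 189 scaled counts in the cold and 267, 565 and 712 at thermoneutrality. The groups were separated by a narrow margin only, since thermoneutral replicate 1 (267) was close to cold replicate 1 (262). The means were 206 ± 49.7 and 515 ± 226 (SD, n = 3 each), and Gamt fell by 1.23 on the log2 scale (SE 0.39, adjusted p = 0.045). The call was lost after centring (−0.70, adjusted p = 0.28) and in 5 of the 6 fits that left out 1 sample. Those gave adjusted p = 0.066 without cold replicate 1, 0.11 without cold replicate 2, 0.11 without cold replicate 3, and 0.12 without thermoneutral replicate 2 or 3. Leaving out thermoneutral replicate 1 gave −1.65 (adjusted p = 0.0058). The table lists Gamt over chr10:79697305-80369637, an interval it shares with 45 other symbols, whereas the gene itself spans chr10:80258151-80261012 in GENCODE, so fragments of neighbours may be split among them and its value is uncertain.

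Slc6a8, the creatine transporter of the plasma membrane (chrX:73673150-73682502), had 306, 511 and 273 scaled counts in the cold and 745, 571 and 548 at thermoneutrality. No value overlapped between groups, and cold replicate 2 was nearest to the thermoneutral samples. The log2 fold change was −0.81 (SE 0.28, adjusted p = 0.055, 95% interval −1.48 to −0.14), which missed the threshold. Without cold replicate 2, Slc6a8 fell by 1.09 (SE 0.23, adjusted p = 0.030). Without thermoneutral replicate 1, its highest sample, the change was −0.68 (adjusted p = 0.1). After centring it was −0.28 (adjusted p = 0.50), and −0.50 (adjusted p = 0.26) with cold replicate 2 also left out. Slc6a8 was called in 3 of 18 alternatives.

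Markers of some other cell types were lower beside Gatm, Gamt and Slc6a8. The 5 progenitor and fibroblast markers made up 0.0395% to 0.0559% of counts in the cold and 0.0912% to 0.201% at thermoneutrality, with 5 of 5 called lower (median −1.90), and the 4 macrophage markers listed made up 0.0218% to 0.0312% and 0.0509% to 0.0784%, with 4 of 4 called lower (median −2.04). None of these 9 markers was at 0 in any sample. After centring 4 of the 5 and 3 of the 4 were still called. Of the smooth muscle markers 2 of 3 tested were lower, of the platelet markers 1 of 2, of the endothelial markers 1 of 5, and of the adipocyte markers 2 of 6. Over all genes tested, 35.2% were called lower. Medians were positive for the T lymphocyte (0.59, 3 tested), neutrophil (1.17, 2 tested) and B lymphocyte markers (2.67, 1 tested), with 0 called. The 1 slow muscle marker tested, Myl3, was called higher (3.88). Myl3 reached the filter only through the cold samples (FPKM 1.45 to 9.23, against 0.0945 to 0.331 at thermoneutrality), so its call is a description only. The part of these cells in the 3 creatine genes was not tested.

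Among the kinases, Ckb encodes the brain-type enzyme (chr12:111669355-111672338). Its scaled counts were 1848, 1258 and 949 in the cold and 430, 915 and 920 at thermoneutrality. The cold samples were all higher, by a small margin where the lowest (949) met the highest thermoneutral value (920). The means were 1352 ± 457 and 755 ± 282 (SD, n = 3 each), with a log2 fold change of 0.87 (SE 0.38, adjusted p = 0.11, 95% interval −0.05 to 1.79). Ckb was positive in 18 of 18 alternatives (0.51 to 1.48) and called in 0 of them, the lowest adjusted p being 0.055 after centring (1.40, SE 0.39). Without cold replicate 2 the value was 0.89 (adjusted p = 0.17), and without thermoneutral replicate 1 it was 0.51 (adjusted p = 0.19).

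Ckmt1, the ubiquitous mitochondrial kinase, was below the filter. It had 3.43, 0 and 1.04 scaled counts in the cold and 247, 0.968 and 0.829 at thermoneutrality, so that thermoneutral replicate 1 alone expressed it beyond a few counts. That sample is also the one with epithelial markers, where all 7 were detected (204 to 22330 scaled counts each), while in every other sample 1 to 3 of the 7 were at 0. The part of these transcripts in Ckmt1 was not tested. Its listed interval (chr2:121357714-121387168) also takes in the antisense gene Strc, which had at most 3.16 scaled counts in any sample.

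Ckmt2, the sarcomeric mitochondrial kinase of heart and skeletal muscle (chr13:91853387-91876885), was likewise below the filter. Scaled counts were 0, 1232 and 5.19 in the cold and 13.3, 18.4 and 15.8 at thermoneutrality. Cold replicate 2 alone was high, and the other cold samples lay below all thermoneutral ones. The sample with 1232 also held 32334 scaled counts of Ckm, the cytosolic kinase of muscle, where cold replicates 1 and 3 held 25.1 and 50.9, and the thermoneutral samples 813, 1591 and 399. Per 100 scaled counts of Ckm there were 3.81 of Ckmt2 in that sample and 1.63, 1.16 and 3.95 at thermoneutrality. Cold replicate 3 gave 10.2 from few counts. Without cold replicate 2, Ckm itself fell by 4.45 on the log2 scale (SE 0.63, adjusted p = 0.018). In that fit 10 of the 10 muscle markers tested were called lower in the cold, beside 22.7% of all genes. None of them was called with all samples. Cold replicate 2 was left out for its muscle transcripts, so these values of muscle genes only describe the remaining samples. In tissue RNA, fewer cells of a type and less RNA per cell cannot be told apart.

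**Figure D2:**
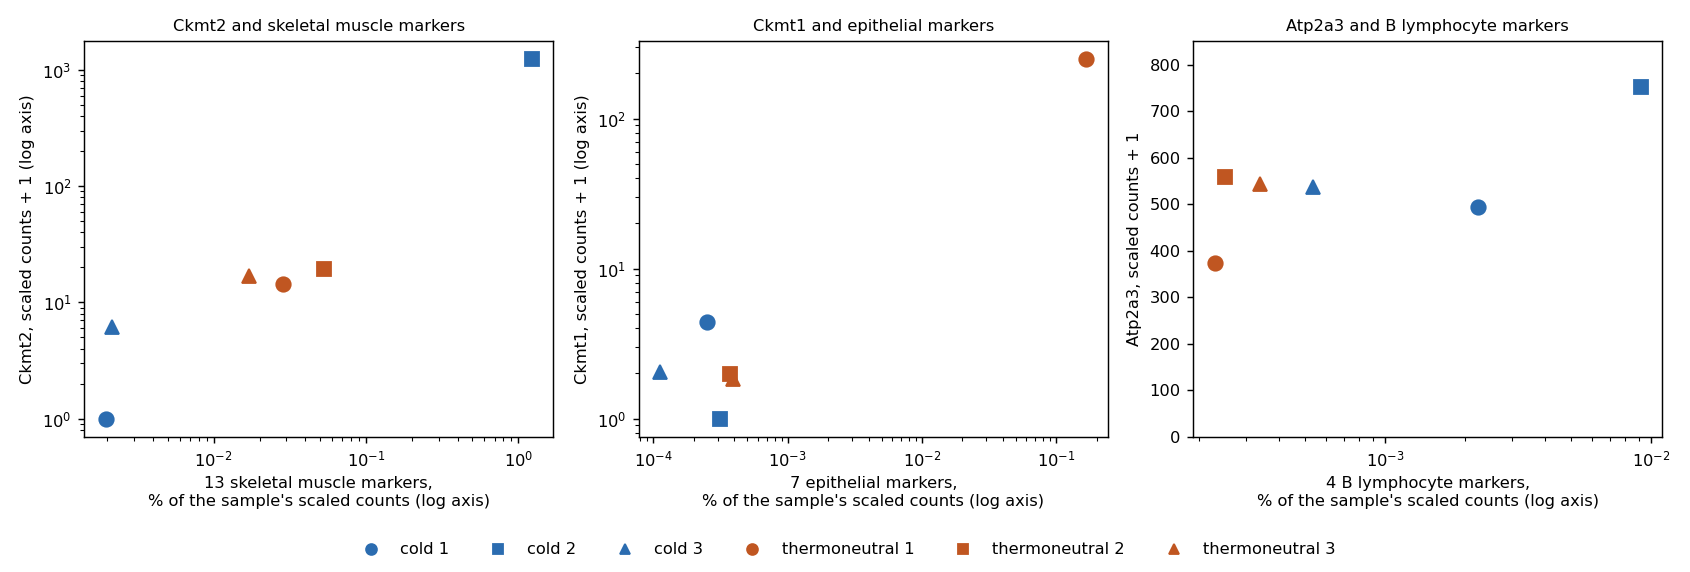
Scaled counts plus 1 of Ckmt2, Ckmt1 and Atp2a3 in each sample against the summed share of a marker list in that sample's counts (log axes, except a linear vertical axis for Atp2a3), with group by colour and replicate by shape. Ckmt2 is highest in the sample with 1.23% muscle markers and Ckmt1 in the sample with 0.168% epithelial markers, while Atp2a3 is highest (751) in the sample with most B lymphocyte markers.

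Setting the kinases beside each other needs a value per length, for which the deposited FPKM (fragments scaled to gene length and library size) were used. The ratio of FPKM to scaled counts was not fixed for every gene, which limits all shares given here. The muscle pump gene Atp2a1 had 46.8 scaled counts and 0.626 FPKM in cold replicate 1, and 48.8 and 1.09 in cold replicate 3. Ckb made up 97.7%, 3.45% and 94.1% of the summed creatine kinase FPKM in the cold and 26.7%, 35.1% and 67.8% at thermoneutrality. The family was thus nearly all Ckb in 2 cold samples, and nearly all Ckm (93.2%) in the cold sample with muscle transcripts. At thermoneutrality Ckm took 53.2%, 64.1% and 30.9%, and Ckmt1 took 19.2% of the first sample. The mean Ckb share differed by 21.9 percentage points (exact permutation test, two-sided p = 0.6, where 3 against 3 cannot go below 0.1). Without cold replicate 2 the difference was 52.7 points and the remaining groups did not overlap, with an exact two-sided p of 0.2. This is the lowest value the test can give with 2 cold samples. The sample was left out for its muscle transcripts and Ckm filled most of its sum, so the wider gap is a description only. The sum of the family, 63.8, 1230 and 34.2 FPKM in the cold and 54.3, 87.9 and 45.7 at thermoneutrality, overlapped between the groups.

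**Figure D3:**
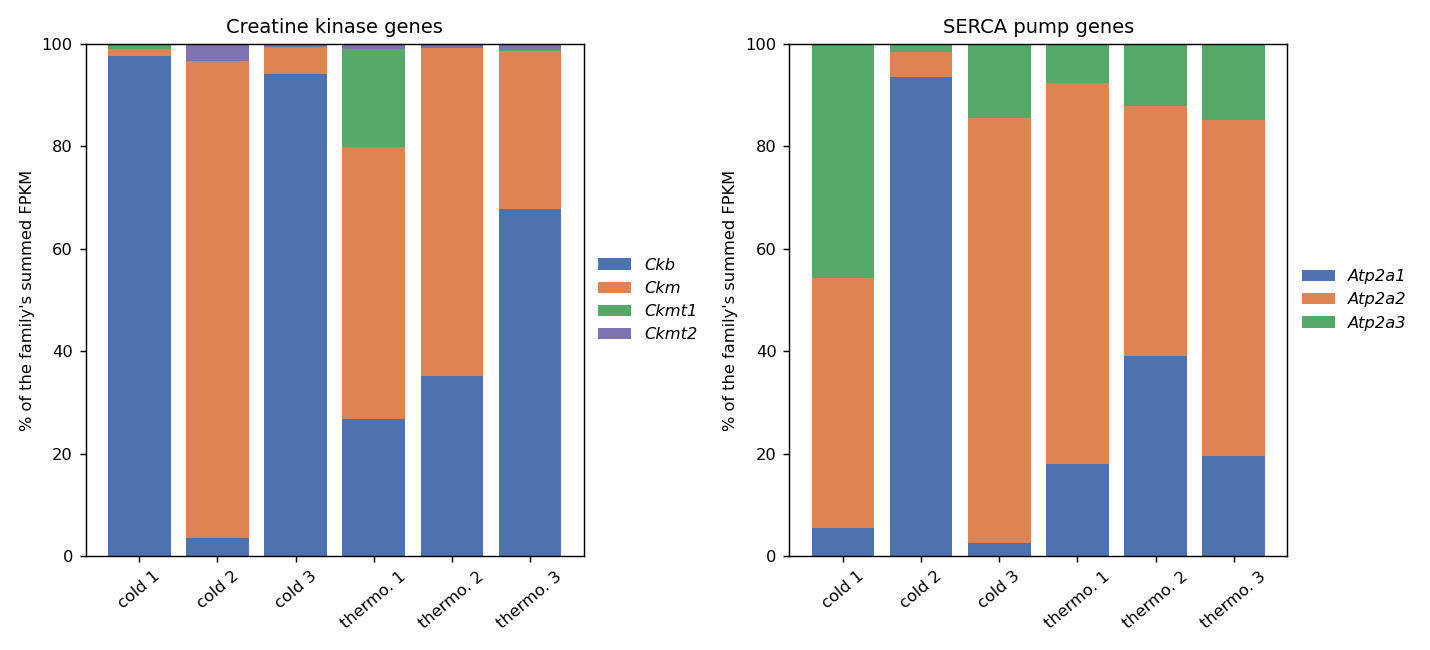
Share (%) of each gene in the summed FPKM of the creatine kinases (left) and of the SERCA pumps (right), by sample. Ckb fills 97.7% and 94.1% of the kinase bar in cold replicates 1 and 3, whereas Ckm (93.2%) and Atp2a1 (93.6%) fill the bars of cold replicate 2.

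Alpl encodes tissue-nonspecific alkaline phosphatase, the enzyme that splits phosphocreatine in the mitochondria of mouse thermogenic adipocytes (chr4:137741733-137796384). Alpl had 455, 365 and 336 scaled counts in the cold and 820, 175 and 194 at thermoneutrality. The cold samples were close together and lay between the sample with epithelial transcripts (820) and the other thermoneutral ones. The log2 fold change over all samples was 0.33 (SE 0.58, adjusted p = 0.65, 95% interval −1.07 to 1.73). Without thermoneutral replicate 1, Alpl rose by 1.05 (SE 0.18, adjusted p = 0.0085). The value was −0.06 without thermoneutral replicate 2 and 0.01 without replicate 3, so its size and its call depended on which thermoneutral samples were kept. With cold replicate 2 left out it was 0.37 (adjusted p = 0.69).

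Atp2a2 encodes SERCA2, whose longer splice form is the pump of most non-muscle cells and whose shorter form serves heart and slow muscle. The table does not separate the forms. Atp2a2 had 538, 2710 and 3352 scaled counts in the cold and 4056, 2503 and 2534 at thermoneutrality. Cold replicate 1 was far below every other sample, and the remaining cold values fell within the thermoneutral range. The log2 fold change was −0.80 (SE 0.69, adjusted p = 0.36, 95% interval −2.44 to 0.85). Leaving out cold replicate 1 gave 0.03 (SE 0.28, adjusted p = 0.93), and leaving out cold replicate 2 gave −1.14 (adjusted p = 0.27). The listed interval (chr5:122421693-122502225) is shared with Anapc7, a subunit of the anaphase-promoting complex, whose values of 587, 565 and 615 in the cold showed no drop in cold replicate 1.

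Atp2a3 encodes SERCA3, a pump known from blood cells, platelets and some epithelia (chr11:72961169-72993044). Scaled counts were 494, 751 and 536 in the cold and 372, 556 and 542 at thermoneutrality, with the groups overlapping. Cold replicate 2 was highest and thermoneutral replicate 1 lowest, and the other samples lay between 494 and 556. Its log2 fold change was 0.27 (SE 0.25, adjusted p = 0.38), 0.09 (adjusted p = 0.78) without cold replicate 2, and −0.09 with thermoneutral replicate 1 also left out. After centring it was 0.81 (adjusted p = 0.049), the only call for Atp2a3 in 18 alternatives. The 4 B lymphocyte markers were 0.00917% of counts in cold replicate 2 and at most 0.00224% elsewhere, and the 7 T lymphocyte markers were 0.00533% there and at most 0.00237% elsewhere, with none of the 11 at 0 in any sample. The 4 platelet markers were higher at thermoneutrality (0.00293% to 0.00396%) than in the cold (0.00126% to 0.00180%). The part of these cells in Atp2a3 was not tested.

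Within the SERCA family, Atp2a2 made up 48.9%, 4.80% and 83.0% of summed FPKM in the cold and 74.4%, 48.9% and 65.6% at thermoneutrality. Atp2a1, the pump of fast muscle fibres, took 93.6% in cold replicate 2 and 5.38% and 2.59% in the other cold samples, against 17.9% to 39.0% at thermoneutrality. Atp2a3 reached 45.7% in cold replicate 1, where Atp2a2 was low. The mean Atp2a2 share differed by −17.4 percentage points (exact two-sided p = 0.7) and by 3.0 points without cold replicate 2 (exact two-sided p = 0.8).

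Ryr2 encodes the calcium release channel best known from heart and brain, and paired with SERCA2 in the calcium cycle of mouse beige fat (chr13:11553103-12108324). It was close to the limit of detection, with 7.997, 19.0 and 15.6 scaled counts in the cold and 0, 6.77 and 6.63 at thermoneutrality. Every cold sample was above every thermoneutral one, but Ryr2 did not reach the filter. Tested with no filter, its log2 fold change was 1.88 (SE 0.90, adjusted p = 0.18). Ryr1, the channel of skeletal muscle, had 3082 scaled counts in cold replicate 2, where replicates 1 and 3 had 4.57 and 8.31 and the thermoneutral samples 49.8 to 134, and Ryr3 had at most 9.49 in any sample. Ryr2 was 38.5%, 0.548% and 40.1% of the summed ryanodine receptor FPKM in the cold and 0%, 4.39% and 10.8% at thermoneutrality, a difference in means of 21.3 percentage points (exact two-sided p = 0.3). The sum itself was 0.0552 and 0.103 FPKM in cold replicates 1 and 3, so these shares rest on very few fragments.

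**Figure D4:**
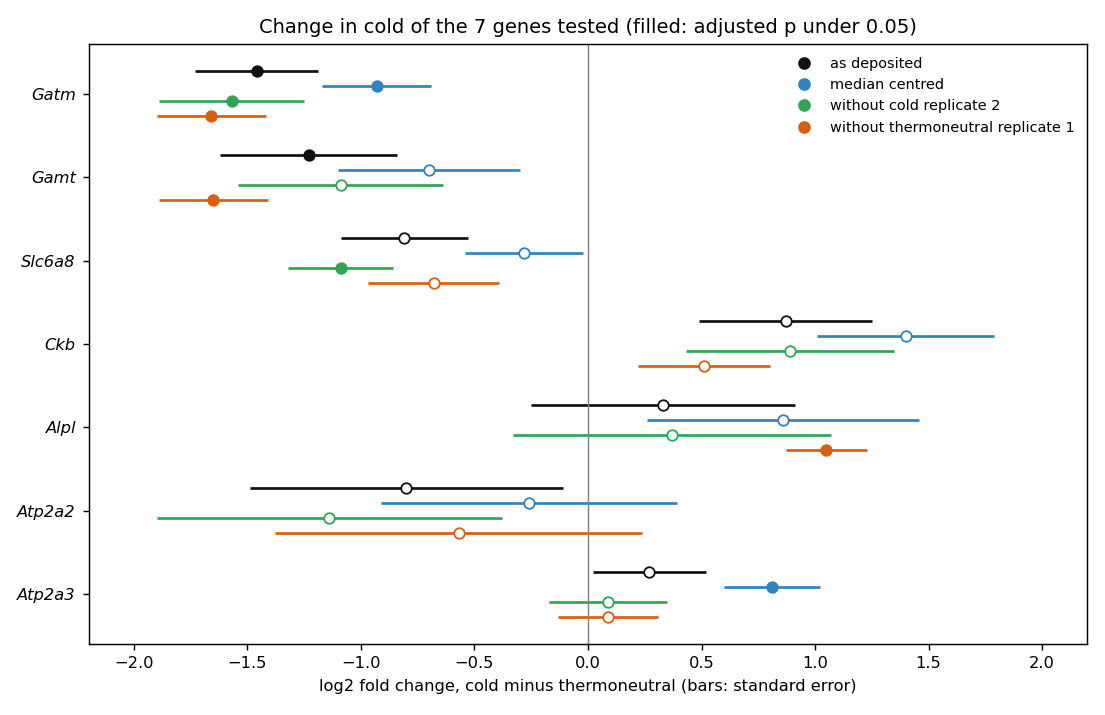
Log2 fold changes (cold minus thermoneutral) with standard errors for the 7 tested genes, for all samples as deposited, after median centring, and without cold replicate 2 or thermoneutral replicate 1, with filled points for an adjusted p under 0.05. Gatm is filled in all 4 (−1.46, −0.93, −1.57 and −1.66), Ckb is positive but open in all 4, and Alpl is filled only without thermoneutral replicate 1 (1.05).

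By FPKM, Ckb was first in the cold, with values from 32.2 to 62.3 and a median of 42.5. Atp2a2 came next (median 28.3) with values from 5.68 to 34.9, which overlapped Ckb above and every gene down to Slc6a8 below. Gamt (10.2) lay above Alpl (7.86) and Slc6a8 (5.29) without overlap, while the highest Atp2a3 value (9.35, median 6.03) passed the lowest of Gamt (9.01). Alpl, Atp2a3 and Slc6a8 overlapped one another, and Gatm (2.50) lay below all of these with no overlap. At thermoneutrality Ckb (median 30.9), Gamt (30.5) and Atp2a2 (26.1) led and overlapped, and Slc6a8 (9.72) lay below them and above Gatm (6.71) and Atp2a3 (5.95) without overlap, the latter pair overlapping. Alpl (median 3.78) ran from 3.29 to 17.7 and so overlapped Slc6a8, Gatm, Atp2a3 and the lowest values of Ckb and Gamt (14.5 each). Ckmt2, Ckmt1 and Ryr2 had medians of 0.528 FPKM or less in both groups, from 0.0177 for Ryr2 at thermoneutrality.

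The genes around the cycles were taken from 5 lists holding 68 symbols, of which 65 were in the table and 52 were tested. With all samples 9 were higher in the cold (6.25% of all genes) and 12 lower (35.2%), and after centring 15 (10.3%) and 2 (5.41%). The phosphate transfer list (adenylate kinases, mitochondrial channels and carriers, Phospho1 and Ckm) had 5 of 10 tested genes higher and 0 lower, with a median log2 fold change of 0.56 against −0.54 over all genes. Its count of higher genes fell to 3 without cold replicate 1, and to 2 without cold replicate 2 (where Ckm was called lower), thermoneutral replicate 2 or thermoneutral replicate 3. Phospho1, a phosphatase of phosphocholine and phosphoethanolamine known from bone mineralization, had 12019, 9501 and 10875 scaled counts in the cold and 208, 346 and 312 at thermoneutrality. These groups lay far apart, and Phospho1 rose by 5.25 on the log2 scale (SE 0.24, adjusted p = 0.00025) and by 5.34 without cold replicate 2 (adjusted p = 0.0021). Ak1, a cytosolic adenylate kinase abundant in muscle, rose by 2.31 (adjusted p = 0.015), with its highest value (2772) in cold replicate 2, and by 1.84 without that sample (adjusted p = 0.029). The outer membrane channel Vdac2 (0.71, adjusted p = 0.019) and the adenine nucleotide carrier Slc25a4 (0.94, adjusted p = 0.031) were called with all samples, and without cold replicate 2 had adjusted p = 0.052 and 0.074. After centring 8 of the 10 were called higher.

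Enzymes that supply arginine, glycine and methyl groups gave 0 higher and 3 lower of 9 tested, with a median of −0.35, a share close to the 35.2% called lower over all genes. Without cold replicate 3, thermoneutral replicate 2 or thermoneutral replicate 3, 1 was lower, and without thermoneutral replicate 1, 1 was higher. Oat, which links ornithine to glutamate and proline, fell by 1.86 (SE 0.24, adjusted p = 0.0055) from 4615 ± 1394 to 1234 ± 82.4 scaled counts (SD, n = 3 each). Asl, the last enzyme of arginine synthesis, fell by 0.73 (adjusted p = 0.027), and Mat2a, which makes the methyl donor S-adenosylmethionine, fell by 0.69 (adjusted p = 0.031). After centring Oat alone was called (−1.33, adjusted p = 0.017), and Asl was no longer called without cold replicate 2 (adjusted p = 0.079).

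The list of endoplasmic reticulum calcium handling had 1 of 18 tested genes higher and 7 lower, with a median of −0.74, again a share close to the 35.2% lower over all genes. The lower count was 3 without cold replicate 3, 2 without thermoneutral replicate 2 or 3, and 1 after centring. Itpr2, an IP3 receptor, had 932, 1107 and 1077 scaled counts in the cold and 448, 604 and 616 at thermoneutrality. No value overlapped, and Itpr2 rose by 0.91 (SE 0.19, adjusted p = 0.015), by 1.44 after centring (adjusted p = 0.0043) and by 0.86 without cold replicate 2 (adjusted p = 0.047). Its call was lost without cold replicate 3 (adjusted p = 0.054) and without thermoneutral replicate 2. Of the other IP3 receptors, named after their values were seen, Itpr3 was called lower (−1.32, adjusted p = 0.024) and Itpr1 was not called (0.34, adjusted p = 0.47). Calr, the luminal calcium buffer and chaperone calreticulin, fell by 1.09 (adjusted p = 0.0072), Asph fell by 1.79 (adjusted p = 0.0089), and Camk2g, a calcium and calmodulin dependent kinase, fell by 0.84 (adjusted p = 0.016). Asph yields an aspartyl hydroxylase as well as the calcium handling proteins junctin and junctate. After centring Asph remained called (−1.26, adjusted p = 0.020), whereas Calr (−0.56, adjusted p = 0.085) and Camk2g (−0.31, adjusted p = 0.24) were not. The SERCA inhibitors Sln and Pln, named after their values were seen, had at most 2.11 and 40.6 scaled counts in any sample and were not tested. Atp2a1 was not called with all samples (−0.81, adjusted p = 0.80) and fell by 3.95 without cold replicate 2 (adjusted p = 0.014). That sample was left out for its muscle transcripts, so the fall of this muscle gene is a description only.

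Mitochondrial calcium genes gave 1 higher and 0 lower of 7 tested, with a median of 0.33. Over all genes tested 6.25% were higher and 35.2% lower. Letm1, an ion exchanger of the inner membrane, had 9796, 8024 and 8738 scaled counts in the cold and 2183, 1907 and 2175 at thermoneutrality. Letm1 rose by 2.08 (SE 0.16, adjusted p = 0.0015) and by 2.15 without cold replicate 2 (adjusted p = 0.0095). After centring 4 of the 7 were called higher (10.3% of all genes). In the list of alpha1-adrenergic receptors and Gq signalling, 2 of 8 were higher and 2 lower, beside the same shares, with a median of −0.42. Leaving out cold replicate 2 or 3 gave 0 higher and 1 lower in limma, with 2 and 2 at an unadjusted p under 0.05. Without thermoneutral replicate 2 or 3, 0 were called in either direction, with 2 higher at an unadjusted p under 0.05 and 1 and 2 lower. The lower count was 1 without cold replicate 1 and 4 without thermoneutral replicate 1 (44.2% of all genes in the latter fit). Adra1a, an alpha1-adrenergic receptor, rose by 1.28 (SE 0.35, adjusted p = 0.031) from 322 ± 126 to 745 ± 153 scaled counts (SD, n = 3 each). Plcb2, a phospholipase C, rose by 0.92 (adjusted p = 0.027). Plcb2 reached the filter only through the cold samples (FPKM 1.18 to 1.56, against 0.799 to 0.957 at thermoneutrality). Its calls, and its place among the higher genes of this list, are therefore a description only. Gnaq, the Gq alpha subunit, fell by 0.94 (adjusted p = 0.022) and Plcb3 fell by 0.67 (adjusted p = 0.041). Neither fall was called after centring (adjusted p = 0.22 and 0.66), whereas Adra1a (1.81, adjusted p = 0.015) and Plcb2 (1.45, adjusted p = 0.0066) were. Without cold replicate 2 Gnaq kept its call (adjusted p = 0.047), and Adra1a (0.076), Plcb2 (0.062) and Plcb3 (0.066) had adjusted p above the threshold.

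**Figure D5:**
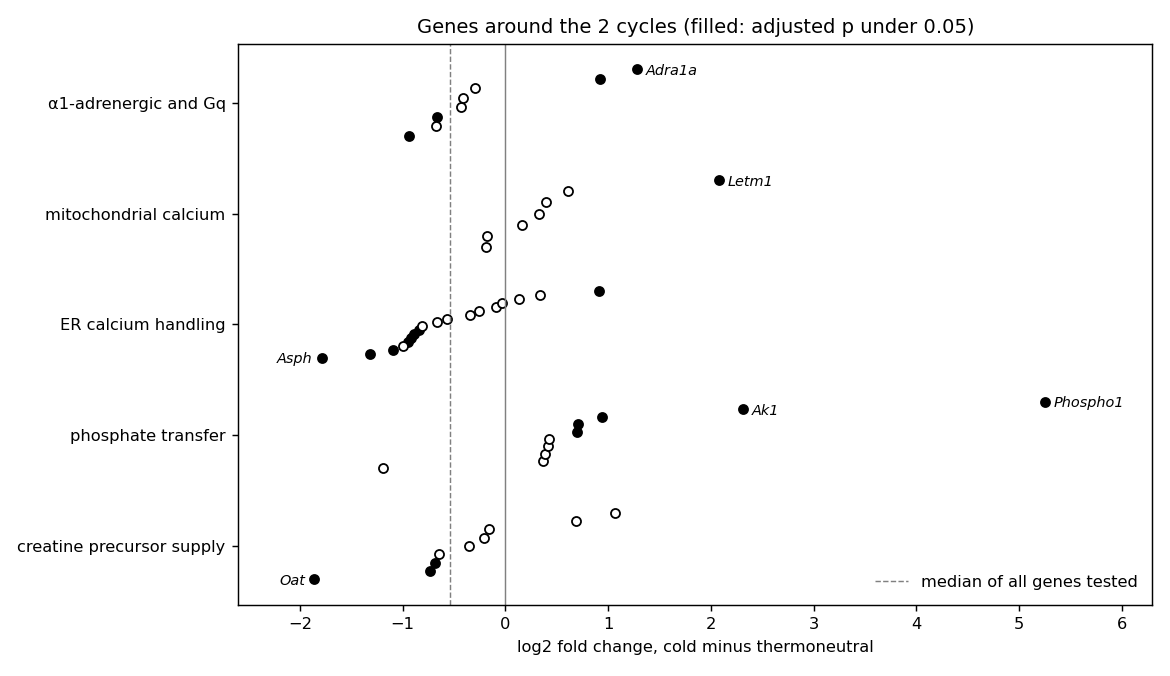
Log2 fold changes (cold minus thermoneutral) of the 52 tested genes of 5 lists around the creatine and calcium cycles, 1 point per gene, filled for an adjusted p under 0.05, with a dashed line at the median of all tested genes (−0.54). Phospho1 (5.25), Ak1 (2.31) and Letm1 (2.08) stand to the right of their lists, and Oat (−1.86) and Asph (−1.79) to the left.

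Genes whose pattern over the 6 samples was most like each tested gene were found by Pearson's r of log2 values, given here as a description. Gatm was closest to Arnt (r = 0.9989) and Vps11 (0.9988), Gamt to Ccdc101 (0.9979) and Hoxb6 (0.9971), and Slc6a8 to Mast3 (0.9877) and Il17ra (0.9876). Ckb was closest to Timm10b (0.9876) and Bcl3 (0.9854), and Alpl to Pbk (0.9967) and Stard10 (0.9953). Atp2a2, low in cold replicate 1, was closest to Slmap (0.9982) and 4933440N22Rik (0.9935), and Atp2a3 to Tmem126b (0.9692) and Pabpc4 (0.9671). With 6 samples in 2 groups, all of these share the same libraries, and the best of 11629 genes is high by selection.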

How the data were processed

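RNA from frozen iWAT of 3 cold and 3 thermoneutral samples was sequenced with a TruSeq kit that is not stated to mark strand. The submitters' processing notes name Bowtie 0.12.2. The deposited table gives, per gene and sample, a count signal that the authors had divided by 1 size factor per sample (94.0% to 94.8% of low values were whole multiples of 1 step, within a tolerance of 0.02) and FPKM values made by the authors. The notes name builds mm8 and mm10. The listed positions of Gatm, Slc6a8, Ckmt2, Alpl and Atp2a3 equalled those of GENCODE vM21 on GRCm38. Those of Gamt, Ckb, Ckmt1, Atp2a2 and Ryr2 differed from it, most of all for Gamt. For 79 symbols with several rows, the row with the highest mean was used.

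Scaled counts were tested as log2(scaled count + 1) with limma 3.58.1 in R 4.3.3, with Benjamini-Hochberg adjustment over 11629 genes reaching an FPKM of 1 in 3 or more samples. Fold changes are on that scale. Python 3.11.15 and pandas 2.3.3 were used for tables. Isoform shares were compared by exact permutation of samples. The steps were tested on simulated data with no overall shift and no sample with muscle or epithelial transcripts, so that test cannot speak to either. Scaling, filter, pseudocount, variance model, replicates and block were varied in 18 alternatives.

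Named genes were all 10 members, Ckm, Atp2a1, Ryr1 and Ryr3, up to 4 called genes of each list by adjusted p, and the 2 genes most like each tested member. The members and lists were chosen with earlier results of these data known.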

Additional observations from a re-analysis of the deposited data

How the results depend on the processing

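Of the 10 genes, 0 were called higher and 2 lower. Called higher moved to 1 with median centring and with cold replicate 2 and thermoneutral replicate 1 both left out, and ranged from 0 to 1 with 1 sample left out at a time. Called lower moved to 1 with no filter on low values, with a filter on scaled counts and with centring, to 0 with quantile normalization and with cold replicate 2 left out after centring, and ranged from 1 to 2 with 1 sample left out. Starting from the fit without cold replicate 2 (0 higher, 2 lower), leaving out thermoneutral replicate 1 as well gave 1 higher and 3 lower, and centring gave 0 lower. A trended and robust variance model gave 3 lower. In the lists around the cycles 9 were higher and 12 lower. Higher calls moved to 5 with no filter and 15 with centring, and ranged from 3 to 11 with 1 sample left out. Lower calls moved to 2 with centring, 3 with quantile normalization and 4 with cold replicate 2 left out after centring, and ranged from 3 to 14.

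The sign turned for Alpl without thermoneutral replicate 2 (−0.06, with a range of −0.06 to 1.05 with 1 sample left out), Atp2a2 without cold replicate 1 (0.03, range −1.29 to 0.03), Atp2a3 without cold replicate 2 and thermoneutral replicate 1 (−0.09), and the Atp2a2 share of SERCA FPKM without cold replicate 2 (3.0 points, with a range of −36.1 to 3.0 with 1 sample left out). The cause was not tested.

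Deviations of same-numbered samples had correlations of −0.00389, 0.0364 and 0.0636, and pairs of unlike number gave −0.0567 to 0.0107. With 3 samples a group, these values cannot show whether a shared number marks a shared batch. With the replicate number as a block, 1 of the members was lower and 0 higher, and 567 and 3139 of all genes were higher and lower, against 727 and 4097. Not every sample correlated best with its own number.

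The count models planned as alternatives were not run, because the deposited values could not be turned back into whole reads for every gene. Of low values, 94.0% to 94.8% were whole multiples of 1 step. With 3 samples a group, an exact test over samples cannot go below 0.1. Ryr2, Ckmt1 and Ckmt2 had few counts in most samples and did not reach the filter.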
